A study of Mus musculus with 2 samples.

Results

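The epithelial microRNAs described here are the 5 hairpins of the miR-200 family (Mir200a, Mir200b, Mir200c, Mir141 and Mir429) with Mir203 and Mir205. These 7 hairpins were chosen by symbol from the 2202 hairpins annotated in the tables, and each matched 1 row. Heart tissue came from 2 mice of the strain B6CASTF1/J, the F1 cross of C57BL/6J with CAST/EiJ, both female and 25 days old. Both animals were labelled as biological replicates of 1 group, with no treatment named, and carried the same donor identifier and separate animal numbers. One free-text label gave the age in months, while the age field gave days. There was no contrast between groups, so the comparisons are between hairpins within each heart and between the 2 hearts, with ratios given as replicate 1 over replicate 2. Errors are SD with n = 2, and intervals are 95% intervals for counting error only.

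MicroRNAs are cut from a folded hairpin as short strands, and bases 2 to 8 of the loaded strand, the seed, select the messenger RNAs to be silenced. The miR-200 family holds cells in an epithelial state, chiefly by silencing Zeb1 and Zeb2, the repressors of the epithelial cadherin gene. Its hairpins lie in a pair of clusters, each known to be made as 1 primary transcript. miR-203 promotes differentiation in the layered epithelium of skin, and miR-205 belongs to basal and stem-like epithelial cells and also silences Zeb1 and Zeb2. Heart muscle is not an epithelium, while the mesothelium of the epicardium is an epithelial-type sheet of the normal heart.

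The mature strands are shown with the seed in capitals, because the seed divides the miR-200 family in a way that cuts across its clusters. The strand shown is the one generally regarded as the guide of each hairpin. All 7 members matched RefSeq entries (GRCm38.p6), from which the sequences were taken, written 5′ to 3′.
miR-200b-3p: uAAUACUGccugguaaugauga
miR-200c-3p: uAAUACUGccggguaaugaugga
miR-429-3p: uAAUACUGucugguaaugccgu
miR-200a-3p: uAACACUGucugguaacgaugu
miR-141-3p: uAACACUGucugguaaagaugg
miR-203-3p: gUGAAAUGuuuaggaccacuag
miR-205-5p: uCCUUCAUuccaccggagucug

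The seed AAUACUG was shared by 3 strands, miR-200b-3p, miR-200c-3p and miR-429-3p, and by no other of the 1738 mature sequences in the RefSeq table. The seed AACACUG was found in 2 strands, miR-200a-3p and miR-141-3p, and each of the seeds shown for miR-203-3p and miR-205-5p in 1. Between the seed types, miR-200b-3p and miR-200a-3p differed inside the seed by U4C, counted from 1 at the 5′ end of miR-200b-3p. Within the first type, miR-200b-3p and miR-200c-3p differed at 2 of 22 compared positions (U11G and A22G). Within the second, miR-200a-3p and miR-141-3p had their first 16 bases in common and differed by C17A and U22G. None of the 14 mature sequences of the 7 members occurred whole in another of the 1005 RefSeq hairpins. Reads of full length could therefore be told apart by hairpin, within that table.

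Counts were made per hairpin, so both arms of a hairpin entered 1 value. The hairpins of Mir200c and Mir205, the highest member and the one whose level differed most between the hearts, are shown with both mature arms in capitals.
Mir200c: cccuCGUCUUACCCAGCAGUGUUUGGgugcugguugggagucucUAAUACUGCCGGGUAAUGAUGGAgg
Mir205: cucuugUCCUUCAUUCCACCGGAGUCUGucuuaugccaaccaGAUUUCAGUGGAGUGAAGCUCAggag

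In mm10 coordinates with GENCODE M21 genes, the first cluster lay on chromosome 4 on the minus strand and spanned 1846 bp. It held Mir200b (156055681 to 156055750), Mir200a (156054896 to 156054985) and Mir429 (156053905 to 156053987), all within an intron of Ttll10, a gene of the tubulin tyrosine ligase-like family, on the same strand. Mir429 also lay in an exon of the noncoding transcript Gm13648. The second cluster lay on chromosome 6 on the minus strand and spanned 477 bp. It held Mir200c (124718322 to 124718390) and Mir141 (124717914 to 124717985), within an intron of the noncoding transcript Gm15884. Mir141 also lay in an exon of the annotated gene Gm29008 on the same strand. Mir203 lay on chromosome 12 (112130880 to 112130955, plus strand) outside any annotated gene, 3321 bp from the coding gene Aspg. Mir205 lay on chromosome 1 (193507463 to 193507530, minus strand) in an exon of 4631405K08Rik, a long noncoding RNA listed by RefSeq as its host gene Mir205hg. Apart from cluster mates, no annotated hairpin overlapped a member or lay within 10 kb of one.

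Replicate 1 held 2050498 hairpin counts and replicate 2 held 2661090, so a single count stood for 0.488 CPM and 0.376 CPM (hairpin counts scaled to a common library total). The labelled tissue was checked on hairpins of other cell types. Mir208a and Mir499, which are encoded within cardiac myosin genes, had 3322 and 5391 counts in replicate 1. In replicate 2 they had 15598 and 6167. They made up 8713 of the 9225 counts of the 9 striated muscle hairpins in replicate 1 and 21765 of the 22124 in replicate 2, so the list's sum of 4499 CPM in replicate 1 and 8314 CPM in replicate 2 followed Mir208a. Mir208b had 391 and 297 counts and Mir1a-2 had 94 and 31, both more in replicate 1. The other 5, Mir1a-1, Mir133a-1, Mir133a-2, Mir133b and Mir206, had at most 8 counts in either heart, so the muscle check rests on the myosin hairpins. Reads matching several places, 38.5% of all reads in replicate 1 and 41.6% in replicate 2, entered no hairpin. How many of them came from the muscle hairpins was not tested. A low count therefore does not show a low level for a hairpin whose reads also match elsewhere. Which of the 5 that covers was not tested. The endothelial hairpin Mir126a alone reached 108082 CPM and 60950 CPM.

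All 7 members had at least 1 count in both hearts, and together they held 828 counts in replicate 1 and 985 in replicate 2. This was 404 CPM (interval 377 to 432) and 370 CPM (interval 347 to 394), or 0.0404% and 0.0370% of hairpin counts. Over the library totals their summed level was thus close in the 2 hearts, at 387 ± 23.8 CPM, while its make-up was not. Which heart had the higher sum depended on the scaling. With TMM scaling, used below for the tests, it was replicate 2. In a tissue sample, fewer cells of a type and less RNA per cell cannot be told apart.

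Mir200c, of the AAUACUG seed type, was the highest of the 7 members by CPM in both hearts. It had 361 counts in replicate 1 and 478 in replicate 2, or 176 CPM and 180 CPM, a mean of 178 ± 2.52 CPM. It stood at rank 117 and rank 112 among all hairpins. Mir203 followed by mean CPM (108 ± 72.3 CPM) and then Mir205 (58.8 ± 81.0 CPM), and the SDs of both were too wide to set an order between them. Mir203 had 57.1 CPM in replicate 1 and 159 CPM in replicate 2. In replicate 2 its counting interval (145 to 175 CPM) overlapped that of Mir200c (164 to 196 CPM).

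Mir205 had 116 CPM in replicate 1 and 1.503 CPM in replicate 2, so it was the second highest member in the one heart and tied with Mir200a as the lowest in the other. Mir200b averaged 23.3 ± 18.1 CPM. Mir141 (9.31 ± 2.01 CPM) and Mir429 (8.30 ± 2.08 CPM) differed by less than their SDs. Mir200a, the partner of miR-141 by seed, was the lowest with 2 counts in replicate 1 and 4 in replicate 2 (1.24 ± 0.373 CPM), near the floor of 3 counts that a count of 0 allows. Dividing counts by hairpin length, which ran from 68 to 90 nt, kept the order of the members in each heart, except that Mir205 then stood above Mir200a in replicate 2 (5.88 and 4.44 counts per 100 nt).

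**Figure D1:**
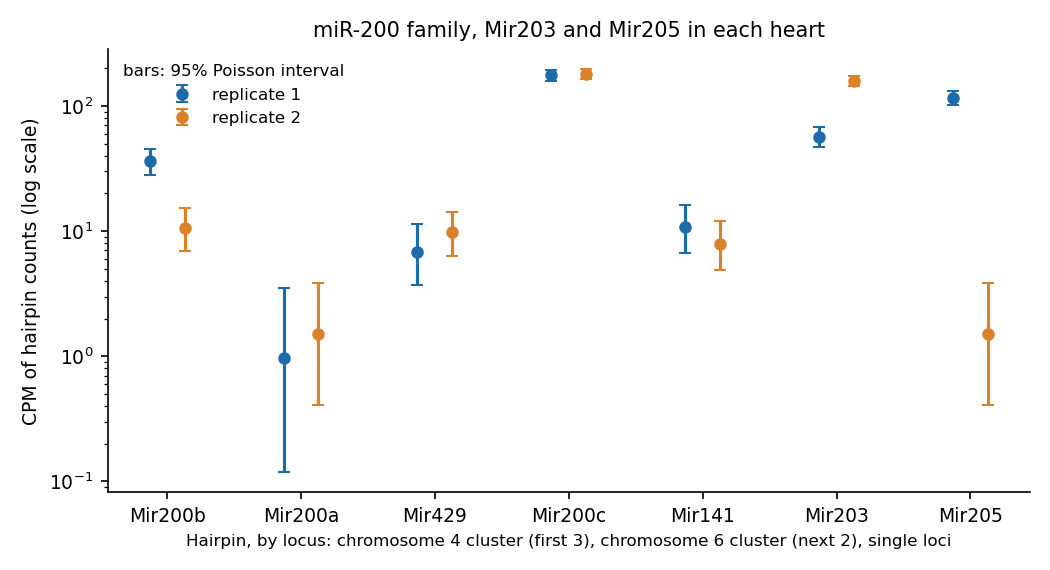
Level of each hairpin in CPM (log scale) in replicate 1 and replicate 2, each point 1 library with its 95% Poisson interval. Mir200c sits at 176 and 180 CPM, while Mir205 sits at 116 CPM in replicate 1 and 1.503 CPM in replicate 2.

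Of the miR-200 clusters, the Mir200c and Mir141 cluster on chromosome 6 supplied most of the family's counts in both hearts. It had 383 counts in replicate 1 and 499 in replicate 2, or 187 CPM and 188 CPM, a mean of 187 ± 0.518 CPM. The chromosome 4 cluster had 90 counts in replicate 1 and 58 in replicate 2, or 43.9 CPM and 21.8 CPM, a mean of 32.8 ± 15.6 CPM. The chromosome 6 cluster was thus 4.26 times the chromosome 4 cluster in counts in replicate 1 and 8.60 times in replicate 2.

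As a share of all miR-200 counts, the chromosome 6 cluster made up 81.0% in replicate 1 (exact binomial interval 77.1 to 84.4). In replicate 2 it made up 89.6% (86.7 to 92.0), and the mean was 85.3% ± 6.09. These intervals, for counting error alone, did not overlap. Per nucleotide of hairpin the shares were 81.6% and 90.5%. Over the library totals the chromosome 6 cluster held nearly the same CPM in both hearts, while the chromosome 4 cluster had counting intervals of 35.3 to 54.0 CPM in replicate 1 and 16.6 to 28.2 CPM in replicate 2. With TMM scaling, as used for the tests, the chromosome 6 cluster summed to 172 CPM in replicate 1 and 203 CPM in replicate 2, and the chromosome 4 cluster to 40.5 CPM and 23.6 CPM.

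Within the chromosome 6 cluster the hairpins were far from equal in both hearts, although each cluster is known to be made as 1 primary transcript. Mir200c exceeded Mir141 in counts by 16.4 times in replicate 1 and 22.8 times in replicate 2. Mir141 made up 5.74% of its cluster in replicate 1 (interval 3.63 to 8.57) and 4.21% in replicate 2 (2.62 to 6.36), and these intervals overlapped.

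On chromosome 4 the make-up changed from heart to heart. Mir200b had 74 counts in replicate 1 and 28 in replicate 2. Mir429 had 14 and 26 counts and Mir200a 2 and 4. Mir200b therefore made up 82.2% of its cluster in replicate 1 (interval 72.7 to 89.5) and 48.3% in replicate 2 (35.0 to 61.8), and these intervals did not overlap. Mir200b exceeded Mir429 by 5.29 times in replicate 1 and 1.08 times in replicate 2. The counts of these neighbours, 1694 bp apart, thus did not keep 1 ratio. Differences beyond counting error were common between these libraries, as the exact binomial test described below called 62.6% of all tested hairpins. The difference in make-up is therefore not shown to be particular to this locus.

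Sorted by the seed of the strand shown, the family's counts were nearly all at hairpins of 1 type in both hearts. Mir200b, Mir200c and Mir429, which share AAUACUG, held 449 counts in replicate 1 and 532 in replicate 2. Mir200a and Mir141, with AACACUG, held 24 and 25. The first type made up 94.9% of miR-200 counts in replicate 1 (interval 92.5 to 96.7) and 95.5% in replicate 2 (93.4 to 97.1), and these intervals overlapped. Both arms of a hairpin entered its count, so these are not shares of reads with that seed. Mir200c alone made up 76.3% of miR-200 counts in replicate 1 and 85.8% in replicate 2. Both clusters hold a member of each seed type, and in each cluster the AACACUG member was the lowest in counts.

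**Figure D2:**
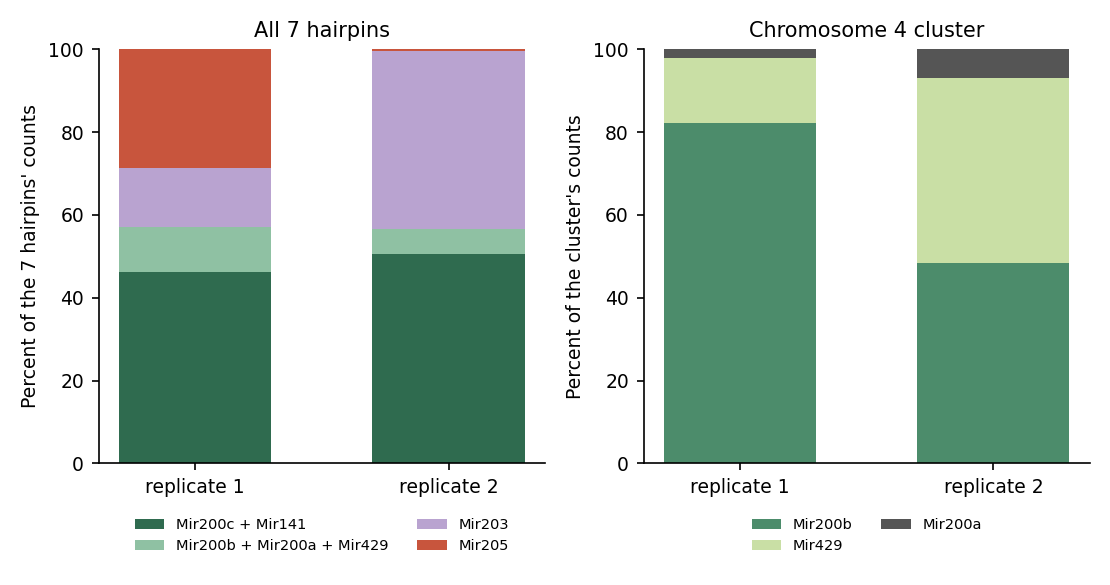
Left, the percent of all counts of the 7 hairpins held by each miR-200 cluster, Mir203 and Mir205 in replicate 1 and replicate 2. Right, the percent of the chromosome 4 cluster's counts held by each of its hairpins, where Mir200b holds 82.2% in replicate 1 and 48.3% in replicate 2.

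Set against both clusters, Mir205 was abundant in only one of the hearts. It had 238 counts in replicate 1 and 4 in replicate 2. In replicate 1 it lay above the whole chromosome 4 cluster (90 counts) and below the chromosome 6 cluster (383 counts). In replicate 2 it lay below both clusters (58 and 499 counts). Mir205 made up 28.7% of the 7 members' counts in replicate 1 (interval 25.7 to 32.0) and 0.406% in replicate 2 (0.111 to 1.04).

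Mir203 went the other way, with 117 counts in replicate 1 and 424 in replicate 2, or 14.1% (interval 11.8 to 16.7) and 43.0% (39.9 to 46.2) of the members' counts. Mir205 was 2.03 times Mir203 in counts in replicate 1, and Mir203 was 106 times Mir205 in replicate 2. The miR-200 family as a whole held a steady share of the members' counts, 57.1% (interval 53.7 to 60.5) in replicate 1 and 56.5% (53.4 to 59.7) in replicate 2. Mir203 and Mir205 summed to 173 CPM in replicate 1 and 161 CPM in replicate 2. With TMM scaling, Mir205 had 107 CPM in replicate 1 and 1.63 CPM in replicate 2, and Mir203 had 52.7 CPM and 173 CPM. The larger sum then lay in replicate 2. The hairpins lie on separate chromosomes, and whether their levels are linked was not tested.

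For the comparison of the hearts, log2 ratios are of TMM-scaled CPM plus 1, replicate 1 over replicate 2. The tests took in 326 hairpins, those that reached 10 counts in either library, and 6 of the 7 members were among them. Mir200a was too low to test, and Mir205 entered through replicate 1 alone. An exact two-sided binomial test asks whether the 2 counts differ by more than counting error. It compares these libraries and not conditions. A second test, the edgeR exact test with the dispersion of the 2 libraries taken as replicates (biological coefficient of variation 0.467), asks whether a hairpin stands apart from the other hairpins in how far these libraries differ. That dispersion came from the same libraries, Mir205 included, so no further animal gives the spread, and a call shows nothing about animals in general.

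Mir205 had the largest difference between the hearts of all 326 hairpins, with a log2 ratio of 5.36. Without the added 1 CPM its TMM-scaled level was 65.8 times higher in replicate 1 (counting interval 25.4 to 244). The adjusted exact binomial p was 7.35e-70. The edgeR exact test gave an adjusted p of 0.00230. Mir205 was the single hairpin called by that test, 0.307% of those tested, while 18 hairpins had an unadjusted p under 0.05. It was also the single hairpin called under the 7 alternative settings, which compare the same 2 libraries and add no replication. Mir205 met the count minimum of the main setting through replicate 1 alone, the heart in which it was high. The members were also chosen with earlier results of these data known. The rank and p-values of Mir205 therefore describe these libraries and are no independent test of it. The next largest difference of any hairpin was 3.69 on the log2 scale.

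Mir203 was lower in replicate 1, with a log2 ratio of -1.69 and a level 3.28 times higher in replicate 2 (counting interval 2.66 to 4.06). It passed the exact binomial test (adjusted p = 8.13e-35) but not the edgeR exact test (adjusted p = 0.919). Its difference ranked 31 of 326 in size. Mir200b was higher in replicate 1 by a log2 ratio of 1.47 and 2.92 times (counting interval 1.87 to 4.69). It also passed the exact binomial test (adjusted p = 1.12e-06) and not the edgeR exact test (adjusted p = 1.00). Both differences were larger than the upper quartile over all tested hairpins (1.06 on the log2 scale, with a median size of 0.56), and the absence of a call in 1 library against 1 does not show that they lie within the spread between animals.

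Mir200c, Mir141 and Mir429 had smaller differences. Mir200c had a log2 ratio of -0.26, a ratio of 0.836 (counting interval 0.727 to 0.960), and an adjusted exact binomial p of 0.0183. That call was lost with size factors from DESeq2 (adjusted p = 0.110), and over all settings the adjusted p ran from 0.0183 to 0.821, the highest with scaling by total count (log2 ratio -0.03). Mir141 had a log2 ratio of 0.19 and a ratio of 1.16 (counting interval 0.608 to 2.22), with an adjusted exact binomial p of 0.725. Mir429 had a log2 ratio of -0.67 and a ratio of 0.596 (counting interval 0.288 to 1.18), with an adjusted exact binomial p of 0.211. These intervals allow a level up to 2.22 times higher in replicate 1 for Mir141, and up to 3.48 times higher in replicate 2 for Mir429. Mir200a had a ratio of 0.553 with a counting interval of 0.050 to 3.86, so no difference was detectable at this depth.

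The exact binomial test called 4 of the 6 tested members, where it called 62.6% of all tested hairpins. In replicate 1, 2 members were higher (Mir205 and Mir200b) and 2 lower (Mir203 and Mir200c), against 26.4% and 36.2% of all tested hairpins. Over all tested hairpins that was 86 higher and 118 lower, which became 117 and 76 when libraries were scaled by total count and 97 and 87 without the 10 highest hairpins. These shares are near the background and say nothing particular about the members. The median log2 ratio was -0.03 over the tested members and -0.09 over all tested hairpins.

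**Figure D3:**
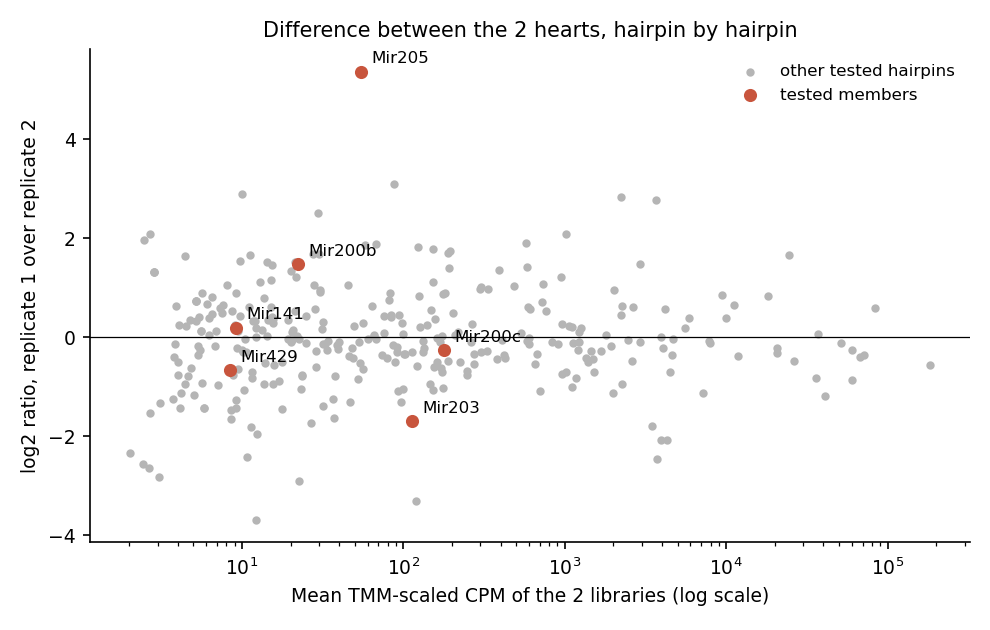
The log2 ratio of replicate 1 over replicate 2 for each of the 326 tested hairpins against its mean TMM-scaled CPM (log scale), with the 6 tested members in red. Mir205 stands at 5.36, above every other tested hairpin, while Mir200c, Mir141 and Mir429 lie between -0.67 and 0.19.

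Other hairpins linked to epithelia were looked at beside the members. The list held 10, among them Mir183, Mir96 and Mir182, a cluster of sensory and other epithelia, Mir375 of endocrine and gut epithelium, and Mir192, Mir194-1, Mir194-2 and Mir215 of gut and kidney. It summed to 477 CPM in replicate 1 and 395 CPM in replicate 2. All 10 had a count in both hearts, and Mir31 (541 and 754 counts) and Mir184 (113 and 134 counts) were the highest by mean. The exact binomial test called 4 of the 9 tested as higher in replicate 1 and 2 as lower, against 26.4% and 36.2% of all tested hairpins. Both directions together gave 6, near the 62.6% called of all tested hairpins. The edgeR exact test called 0, with 1 at an unadjusted p under 0.05. In 1 library against 1, the absence of a call does not place these differences within the spread between animals. The median log2 ratio of the 9 was 0.60, against -0.09 over all tested hairpins. Some of the 9 share a cluster, as Mir183 and Mir182 do. The calls and the median therefore do not rest on 9 separate loci. Reads matching several places entered no hairpin, and how many came from these hairpins was not tested.

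Higher in replicate 1 were Mir215 (113 counts in replicate 1 and 20 in replicate 2), Mir192 (68 and 31), Mir194-2 (48 and 17) and Mir182 (27 and 15). Lower in replicate 1 were Mir375 (9 and 32) and Mir31. The ciliated epithelium list summed to 56.1 CPM in replicate 1 and 81.2 CPM in replicate 2. Of its 5 hairpins, Mir34c was lower in replicate 1 (39 and 140 counts), Mir449a had 73 and 72 counts, and Mir449b was at 0 in both.

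Hairpins of other cell types also differed between the hearts by the exact binomial test. That test called 26.4% of all tested hairpins as higher and 36.2% as lower in replicate 1. The edgeR exact test called none of those named next, which does not place them within the spread between animals. The erythroid list summed to 1783 CPM in replicate 1 and 869 CPM in replicate 2, with 3 of 3 hairpins called higher in replicate 1. The liver microRNA Mir122 had 47 counts in replicate 1 and 540 in replicate 2. The leukocyte list summed to 6066 CPM and 6121 CPM, with 1 of its 5 tested hairpins called higher and 4 lower in replicate 1, and Mir142b at 0 in both. Smooth muscle and pericyte hairpins summed to 29354 CPM in replicate 1 and 48287 CPM in replicate 2. The part of other cell types in the levels of Mir205, Mir203 and Mir200b was not tested.

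**Figure D4:**
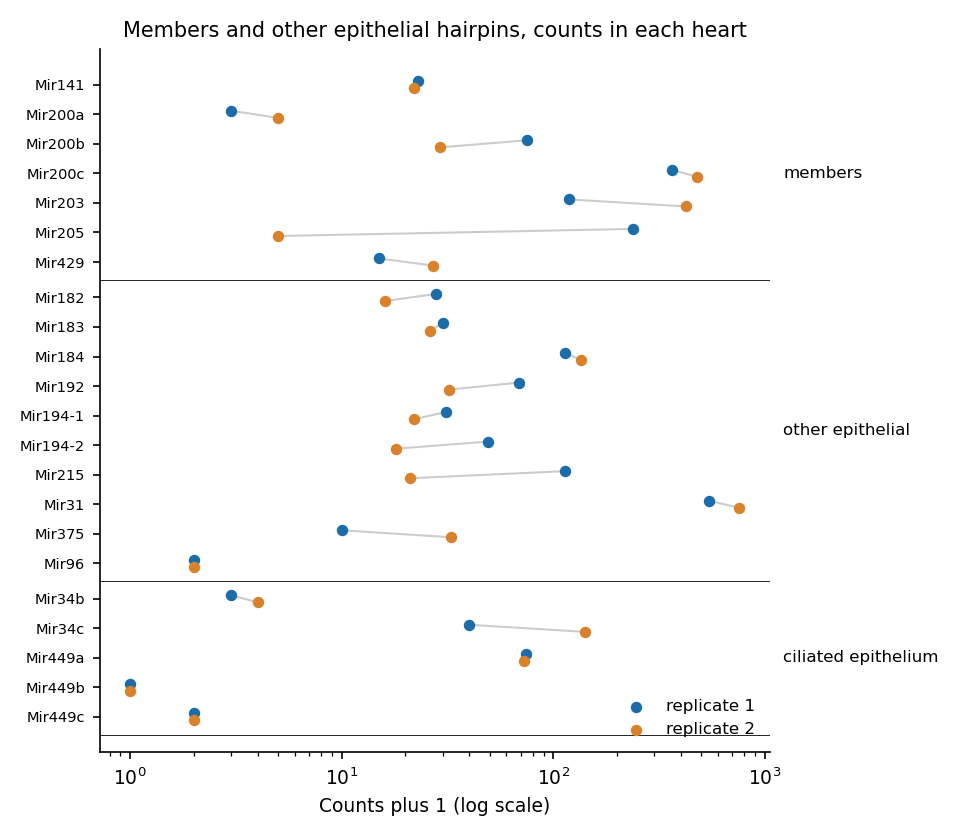
Counts plus 1 (log scale) in replicate 1 and replicate 2 for the 7 members, 10 other hairpins linked to epithelia and 5 of ciliated epithelium, with a grey line joining the 2 hearts. Counts are not scaled for library size, and Mir205, at 238 and 4 counts, has the longest line.

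The hairpins most like Mir200c and Mir205 were sought by the distance between pairs of log2(CPM plus 1) values over the 2 libraries, among 325 others. For Mir200c they were Mir128-1 (distance 0.0271), with 360 counts in replicate 1 and 487 in replicate 2, Mirlet7f-1 (0.165), with 359 and 426, and Mir382 (0.179), with 347 and 538. Mir205 had no such close neighbour. The nearest was Mir215 at a distance of 2.06 log2 units. Gm23935 (2.48), with 41 counts in replicate 1 and 4 in replicate 2, and Mir1a-2 (2.68), with 94 and 31, came next. A likeness over 2 libraries is a description only.

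On the opposite strand the members held 0 reads in replicate 1 and 5 in replicate 2, of which 3 were at Mir203 and 2 at Mir200a. Taking either strand left the counts of the other 5 members as they were in both libraries, with Mir203 at 427 and Mir200a at 6 in replicate 2.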

How the data were processed

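MicroRNA-seq was made from the hearts of 2 mice. The deposited tables give raw, unscaled counts for each hairpin, in separate columns for either strand, the hairpin's own strand and the opposite strand. Reads were placed on mm10 with GENCODE M21, per the file headers of the notes deposited with the tables. For the aligner and counter nothing was given in the sources used here. Values are from the hairpin's own strand. Rows without a hairpin were kept out of library totals: reads matching several places were 38.5% and 41.6% of all reads in replicates 1 and 2, unmapped reads 14.1% and 11.5%, and reads in no hairpin 6.48% and 5.64%. All 2202 identifiers matched GENCODE M21.

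CPM was computed over all hairpin rows. Scaling used TMM (edgeR 4.0.16, R 4.3.3) over hairpins that reached 10 counts in either library. Exact binomial and edgeR exact p-values were adjusted by Benjamini-Hochberg over all 326 tested hairpins, with a threshold of 0.05, and both tests were checked on simulated data. With counting error alone both recovered the changed hairpins. With spread between libraries added, the binomial test also called many unchanged hairpins, and the edgeR exact test recovered no changed hairpin. All changes were simulated at a single size, smaller than the difference of Mir205, and other sizes were not simulated. For changes of the simulated size and spread, the absence of a call by the edgeR exact test is therefore not informative. What it misses at others is not known. With 1 library against 1, edgeR's quasi-likelihood test has no residual degrees of freedom. Shares have exact (Clopper-Pearson) and counts exact Poisson 95% intervals, which cover counting error only. PCR copies were not told apart, so the intervals may be too narrow even for that error. The spread between the libraries may be technical in part. Alternatives were the unstranded column, count minimums of 1 and 50, DESeq2 1.42.0 size factors and dispersion trend, total-count scaling, pseudocounts of 0.5 and 5 CPM, leaving out the 10 highest hairpins, all reads as the total, hairpin length, and each replicate left out. The members and lists were chosen with earlier results of these data known. The text names all 7 members, hairpins within 10 kb of one, the 3 hairpins nearest to Mir200c and to Mir205 over both libraries, and up to 3 of the highest of a list; further hairpins of the lists were named after their values were seen.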

Additional observations from a re-analysis of the deposited data

Results flagged for a closer look

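Reads outside the counts used above were looked at because each total exceeded 3 counts, the limit for a true level of 0, which does not show that they are unusual. Reads matching several places, which entered no hairpin, numbered 1925044 in replicate 1 and 2686901 in replicate 2, and how many of them came from the 7 members was not tested. Opposite-strand reads at the members numbered 5 in replicate 2.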

How the results depend on the processing

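Of the 42 alternative values of the members' log2 ratios, 0 changed sign. The 6 tested members had 24 alternatives with a test of their own, and 21 kept their side of the threshold of the exact binomial test. The other 3 were of Mir200c, whose call was lost at -0.18 with DESeq2 size factors, -0.03 by total count and -0.15 without the 10 highest hairpins. The log2 ratio of Mir205 ran from 4.08 to 5.89, with the lowest value at a pseudocount of 5 CPM. The edgeR exact test called Mir205 alone under the settings tried, with adjusted p between 0.000694 and 0.00778, although each setting compares the same 2 libraries and adds no replication. The exact binomial test called 165 to 204 hairpins. The median log2 ratio of all hairpins was 0.14 when libraries were scaled by total count and -0.09 with TMM. Relative to that median, Mir200c lay at -0.17 under both scalings. A change of scaling shifts all hairpins almost alike, so this likeness was fixed in advance and does not restore the lost call. With all reads as the library total, the chromosome 4 cluster summed to a mean of 13.5 CPM and the chromosome 6 cluster to 76.9 CPM. In the unstranded column, which has a smaller library total, the chromosome 6 cluster summed to 264.7 CPM. Hairpin counts at Mir200a (2 and 4), Mir141, Mir429 and, in replicate 2, Mir205 limit what can be said of their ratios. Leaving out a replicate leaves the value of the remaining heart, 81.0% or 89.6% for the share of the chromosome 6 cluster in miR-200 counts and 28.7% or 0.406% for Mir205 among the 7 members.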
